A study of Mus musculus with 4 samples.

Results

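The transcripts described here are those of 39 genes that carry glucose to carbon dioxide: 10 genes of upper glycolysis, 5 of lower glycolysis, 2 lactate dehydrogenase subunits, 4 genes of the pyruvate dehydrogenase complex, and 18 of the citrate cycle with its cytosolic isozymes. They were picked by gene symbol and not by a measured value, though with earlier results of these data known. All 39 were among the 16360 symbols of the count table. They were measured by poly(A) RNA-seq in recruited alveolar macrophages, which arise from blood monocytes and enter the airspaces of an injured lung. The R213G libraries came from male mice with both alleles of EC-SOD carrying R213G, a variant of this secreted antioxidant enzyme encoded by Sod3. The WT libraries came from male wild-type mice, and there were 2 libraries per genotype. All mice were 8 to 10 weeks old, of a strain written CD57/Bl6 in the labels, and all had received bleomycin, a drug used to injure the lung, as 100 µl at 1 U/ml into the trachea 7 days before the cells were sorted. The gate took cells high in CD64 and CD11b and low in Siglec-F. Both genotypes were therefore injured, and no uninjured group is analysed here.

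Glycolysis splits glucose into pyruvate in the cytosol. Its upper steps spend ATP to phosphorylate and split the sugar, and its lower steps return ATP and NADH. Lactate dehydrogenase turns pyruvate into lactate, while the pyruvate dehydrogenase complex turns it into acetyl-CoA inside mitochondria, where the citrate cycle oxidises it and feeds electrons to the respiratory chain. Macrophages that respond to inflammatory signals are known to lean on glycolysis, and succinate and itaconate, which derive from the cycle, act as signals in them.

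Total counts were 33488569 and 35176210 in the R213G libraries, against 33573116 and 34111951 in the WT libraries, and each of the 39 genes had between 187 and 35453 counts per library. Fcgr1, which encodes CD64, had 249.9 and 251 CPM (counts scaled to library size) in R213G libraries and 261 and 243 CPM in WT libraries. Siglecf had 12.1 and 11.6 CPM in R213G libraries, against 10.8 CPM in each WT library. Of the libraries, R213G replicate 1 had the fewest genes with a count, 13584 and 15047 in R213G libraries and 14598 and 15194 in WT libraries, and the most Gm42418, an RNA that overlaps ribosomal RNA, with 1689 and 513 CPM in R213G libraries and 671 and 702 CPM in WT libraries. WT replicate 1 had the lowest summed level of 14 proliferation genes, with 1149 and 1462 CPM in R213G libraries and 813 and 1368 CPM in WT libraries. The protocol gives n = 2 without saying whether mice were pooled or each gave a library, so the p-values below cover only how far the libraries themselves spread. In RNA from many cells, fewer cells of a type and less RNA per cell cannot be told apart.

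None of the 39 genes differed between R213G and WT macrophages past the threshold. The edgeR quasi-likelihood test with Benjamini-Hochberg adjustment over all 13575 genes tested called 0 of 39 at an adjusted p of 0.05, and it called 0 genes in the whole table (0%). At an unadjusted p under 0.05 it counted 0 of 39, against 302 of all genes (2.22%). DESeq2 and limma voom also called 0 of the 39, and counted 0 of them at an unadjusted p under 0.05. With R213G replicate 2 left out, the log2 fold changes of the 39, R213G over WT, ran from -0.68 for Pfkm to 0.69 for Pgk1. All 39 passed the filter on low counts. In the full fit their log2 fold changes ran from -0.50 for Pfkm to 0.51 for Pgk1, with a median SE of 0.14. The 95% interval lay within 1.5-fold in either direction for 30 of 39 genes and within 2-fold for 35.

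The 39 genes sat slightly above zero as a group. The fold change was positive for 25 of 39 (64.1%), where the background was 49.1% of all genes tested, and the median was 0.08 against -0.01 for all genes. Among the 8998 genes whose mean CPM lay in the range of the 39, 50.6% were positive and the median was 0.00. Both R213G libraries lay above both WT libraries for 11 of 39 genes (background 13.7%) and below both for 5 (background 15.2%), so that 41% of the 39 genes had no overlap between genotypes, against 28.9% of all genes. For 30 of the 39 genes the larger gap between replicates exceeded the difference between genotypes. Without WT replicate 1 the median of the 39 was 0.02, and without R213G replicate 1 it was 0.05.

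**Figure D1:**
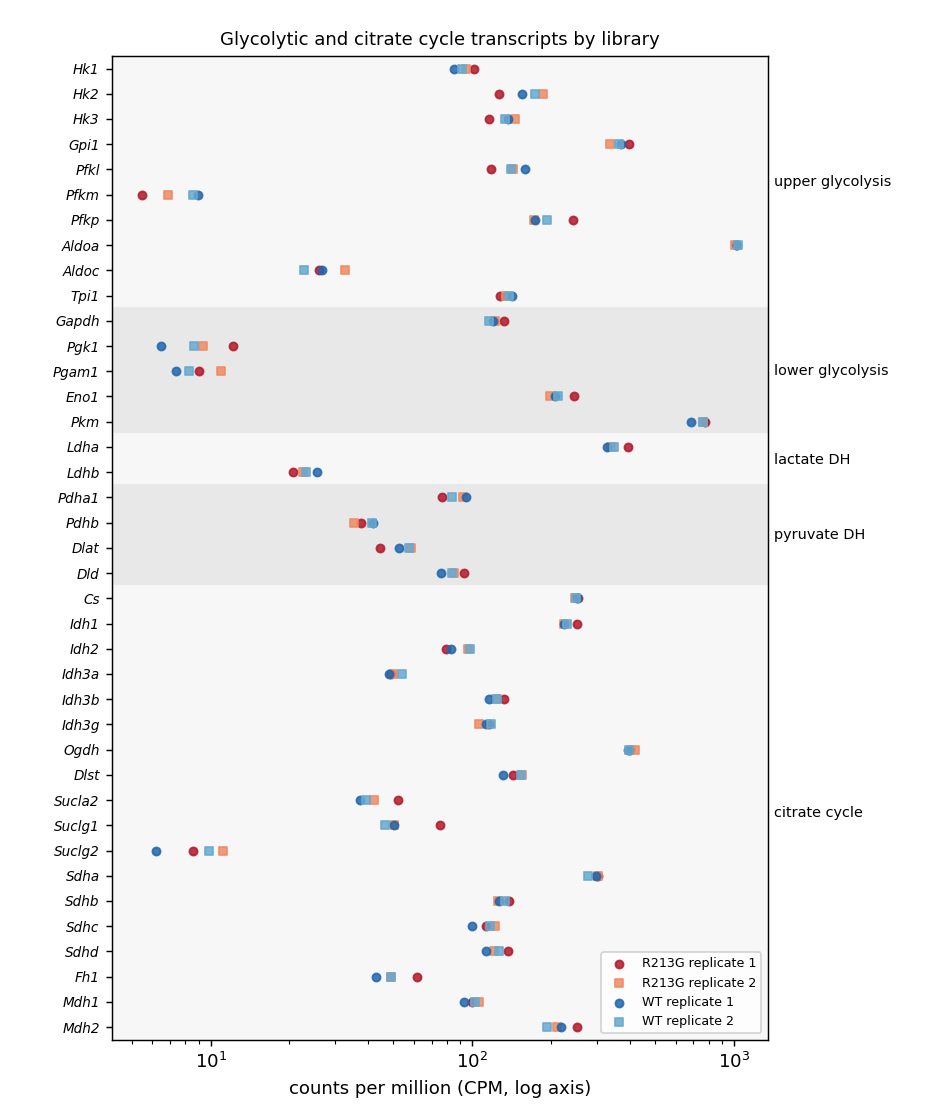
Level of each of the 39 genes in each library, in CPM on a log axis, with 1 point per library, R213G in reds and WT in blues, and the arms of the pathway as shaded bands. The points of a gene lie close together, while levels span from about 1023 CPM on average for Aldoa to 7.47 CPM for Pfkm.

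**Figure D2:**
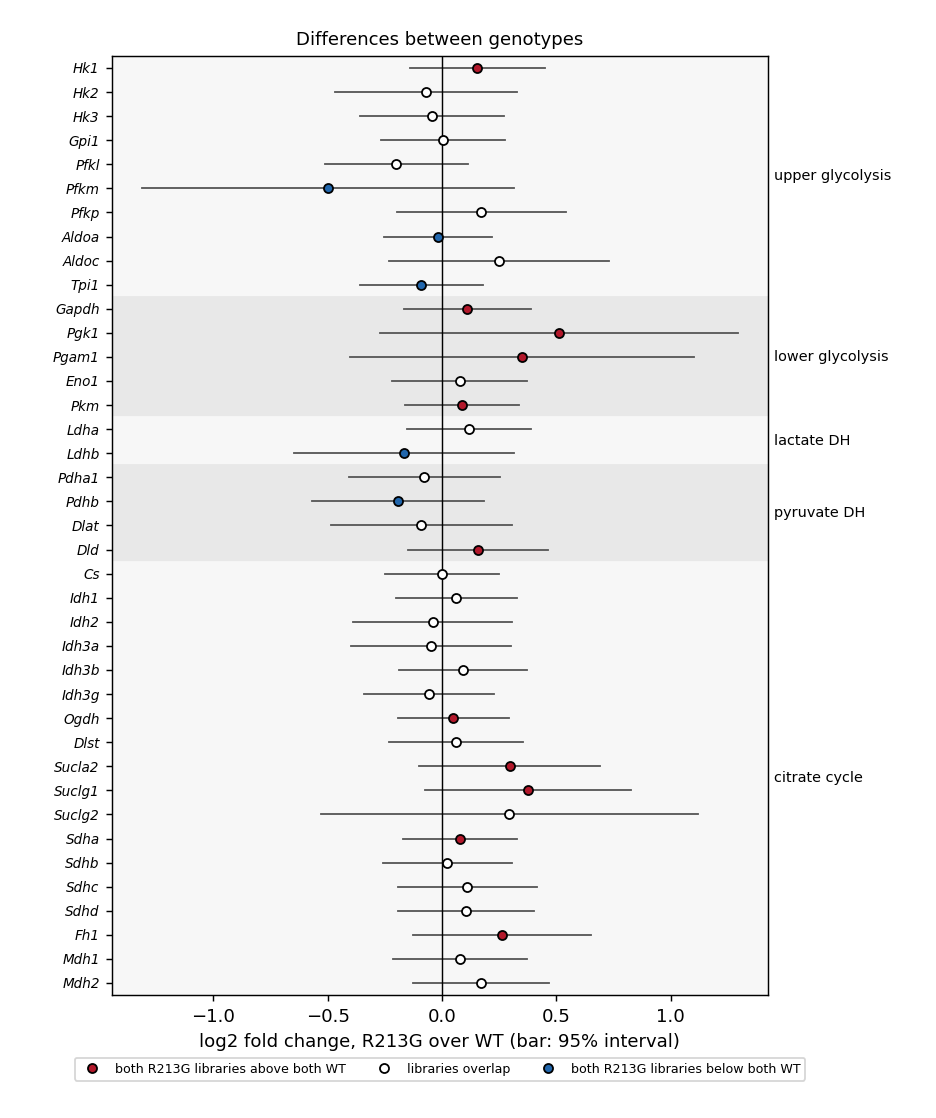
Log2 fold change of each gene, R213G over WT, with its 95% interval from the edgeR fit to 2 libraries per genotype. Every interval crosses 0, and the filled points mark the 11 genes whose R213G libraries both lay above WT and the 5 whose R213G libraries both lay below.

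Levels were compared between genes as mean CPM per kilobase of exon over the 4 libraries, with each gene's percentile among the 11687 protein-coding genes that could be given a length. Aldoa, the main aldolase, led at 352 CPM per kilobase (percentile 99.4). Pkm, which encodes pyruvate kinase of the last glycolytic step, followed at 149 CPM per kilobase, and Ldha at 107 CPM per kilobase. The highest citrate cycle gene was Sdhd, a membrane anchor of succinate dehydrogenase, at 101 CPM per kilobase (percentile 97.1). Idh1, Ogdh and Sdha came next among them, at 84.1, 73.7 and 71.4 CPM per kilobase. This order depends on the length used. Exons and transcript both span 1231 bases for Sdhd, while Mdh2, at 61.2 CPM per kilobase, has 3562 exon bases and a transcript of 1456. At the other end lay Suclg2, at 1.94 CPM per kilobase (percentile 25.8), and Pfkm, at 2.24 CPM per kilobase.

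Upper glycolysis, which runs from hexokinase to triosephosphate isomerase, showed 4 positive and 6 negative fold changes of 10, with a median of -0.03. Hexokinases trap glucose in the cell by phosphorylating it, and 3 of them were measured. Hk3, the highest of them per kilobase, had 3972 and 5065 counts in R213G libraries and 4530 and 4560 counts in WT libraries. The WT values lay between the R213G values, and the log2 fold change was -0.04 ± 0.14 (SE). Hk2, the inducible hexokinase, averaged 156 ± 43.0 CPM in R213G and 164 ± 13.5 CPM in WT (SD, n = 2 each), and its R213G libraries were 0.57 apart on the log2 scale. Hk1, which is expressed in most tissues, averaged 98.2 ± 5.13 CPM in R213G and 88.1 ± 4.38 CPM in WT. Both of its R213G libraries lay above both WT libraries, with a log2 fold change of 0.15 ± 0.13 and an unadjusted p of 0.268. Gpi1, which converts glucose 6-phosphate to fructose 6-phosphate, had 13567 and 11719 counts in R213G libraries and 12229 and 12444 counts in WT libraries, and the groups overlapped.

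Phosphofructokinase catalyses the committed step of glycolysis, and its 3 isozymes did not share a direction. Pfkl, the liver type and the highest per kilobase, had 4033 and 4980 counts in R213G libraries and 5259 and 4837 counts in WT libraries. R213G replicate 1 was the lowest of the 4 libraries, while in CPM R213G replicate 2 lay between the WT libraries. Its log2 fold change was -0.20 ± 0.14, with an unadjusted p of 0.185 and an adjusted p of 1.00 (edgeR). Pfkm, the muscle type, had 187 and 240 counts in R213G libraries and 296 and 293 counts in WT libraries. Both R213G libraries lay below both WT libraries, with means of 6.19 ± 1.00 CPM in R213G libraries and 8.75 ± 0.30 CPM in WT libraries (SD). Its log2 fold change was -0.50 ± 0.36, with a 95% interval from -1.31 to 0.32. Pfkp, the platelet type, averaged 207 ± 50.2 CPM in R213G and 184 ± 13.7 CPM in WT, and only R213G replicate 1 lay above the other libraries. Without R213G replicate 1, the fold changes of Pfkl and Pfkp were -0.07 and -0.10 on the log2 scale, and without R213G replicate 2 they were -0.35 and 0.40.

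Aldolase splits fructose 1,6-bisphosphate. Aldoa had 34860 and 35247 counts in R213G libraries and 33915 and 35453 counts in WT libraries. After scaling for library size the libraries lay between 1013 and 1033 CPM, with those of R213G just below those of WT and a log2 fold change of -0.02 ± 0.11. Aldoc, the isozyme known from brain, averaged 29.3 ± 4.67 CPM in R213G and 24.7 ± 2.66 CPM in WT. Tpi1, which interconverts the resulting triose phosphates, had 4368 and 4692 counts in R213G libraries and 4684 and 4742 counts in WT libraries. In CPM both R213G libraries of Tpi1 lay below both WT libraries, with a log2 fold change of -0.09 ± 0.12 and an unadjusted p of 0.466.

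Isozyme make-up was read as the share of reads per kilobase that each isozyme took in its family, which does not depend on scaling between libraries. Hk3 took 48.9% and 48.3% in R213G libraries and 50.9% and 47.6% in WT libraries, ahead of Hk2 and Hk1 in every library. Pfkl took 47.3% and 59.1% in R213G libraries and 60.4% and 55.4% in WT libraries. Pfkp took 48.3% and 35.2% in R213G libraries and 32.9% and 37.9% in WT libraries. R213G replicate 1 was thus the only library in which Pfkp exceeded Pfkl. With the length of the longest transcript in place of all exons, Pfkl led there too, with 51.5%. Pfkm took the remaining 4.38% and 5.69% in R213G libraries and 6.79% and 6.71% in WT libraries, and was the phosphofructokinase whose share did not overlap between genotypes. With 2 libraries per genotype the smallest two-sided p of an exact permutation test is 0.33, and these shares carry no test.

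**Figure D3:**
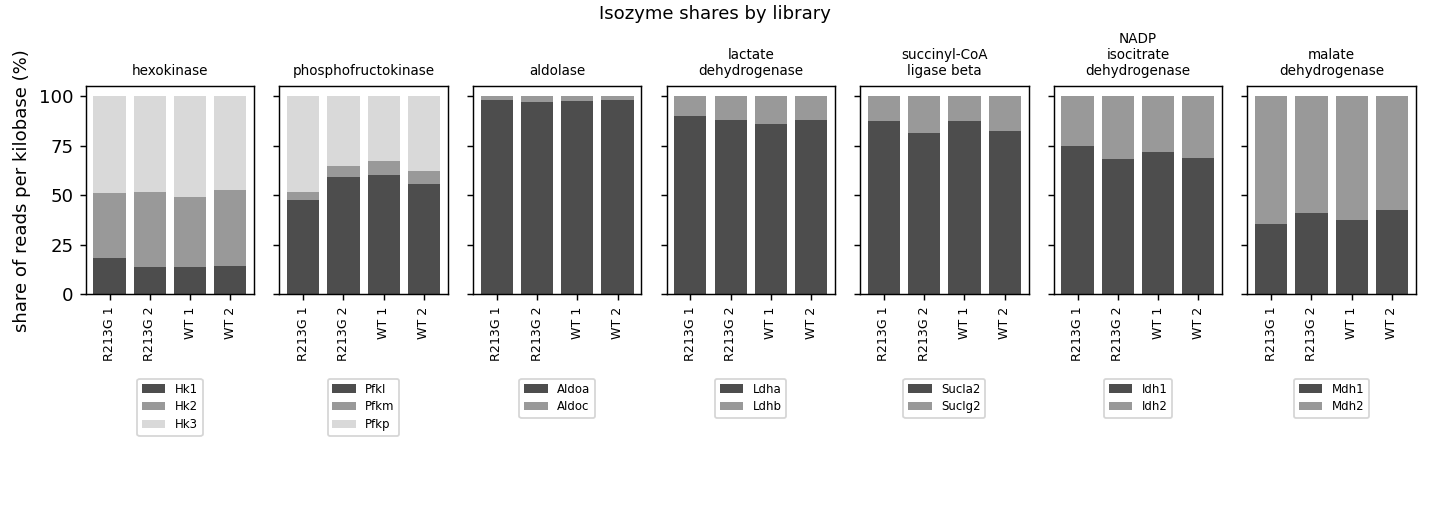
Share of reads per kilobase of exon taken by each isozyme of 7 enzyme families, in percent, with 1 stacked bar per library. Aldoa takes at least 97.2% of its family and Ldha at least 85.9% in every library, while the phosphofructokinase bar of R213G replicate 1 differs from the others by its larger Pfkp part.

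Lower glycolysis, from glyceraldehyde 3-phosphate to pyruvate, was the arm in which the fold changes of all 5 genes were positive, with a median of 0.11. Both R213G libraries lay above both WT libraries for Gapdh, Pgk1, Pgam1 and Pkm, against 13.7% of all genes, and the genotypes overlapped for Eno1. Gapdh, which yields NADH, had 4511 and 4255 counts in R213G libraries and 3957 and 3977 counts in WT libraries. The 2 genotypes were close, with means of 127 ± 6.96 CPM in R213G libraries and 118 ± 2.73 CPM in WT libraries, a log2 fold change of 0.11 ± 0.12 and an unadjusted p of 0.394. Pgk1, the kinase of the first ATP-yielding step, had 12.2 and 9.37 CPM in R213G libraries and 6.45 and 8.66 CPM in WT libraries. R213G replicate 2 lay just above WT replicate 2, and R213G replicate 1 and WT replicate 1 lay farther out. Its log2 fold change was 0.51 ± 0.35, with a 95% interval from -0.27 to 1.29, an unadjusted p of 0.175 and an adjusted p of 1.00 (edgeR). Leaving out WT replicate 1 gave 0.32, and leaving out R213G replicate 1 gave 0.31.

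Pgam1, the mutase that moves the phosphate from carbon to carbon, had 308 and 381 counts in R213G libraries and 244 and 284 counts in WT libraries. Both R213G libraries were the higher ones, and the log2 fold change was 0.35 ± 0.34. Eno1, enolase, had 8332 and 6891 counts in R213G libraries and 6839 and 7276 counts in WT libraries. In CPM its WT values lay between its R213G values, with a log2 fold change of 0.08 ± 0.13. Pkm had 26495 and 26459 counts in R213G libraries and 22684 and 26063 counts in WT libraries. WT replicate 1 stood below the other 3, R213G replicate 2 and WT replicate 2 were nearly equal at 760.4 and 759.5 CPM, and the log2 fold change was 0.09 ± 0.11, or 0.02 without WT replicate 1.

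Several of these genes have processed copies elsewhere in the genome, so that a short read from them can match more than a single place. Windows of 50 bases were taken from the annotated transcript with the longest coding sequence of each gene. The share found at no other locus was 9.56% for Gapdh, 27.8% for Eno1, 32.0% for Pgk1 and 58.5% for Pgam1, all in lower glycolysis. Pkm stood at 69.5%, while 28 of the 39 genes had at least 90% and 23 had 100%. Gapdh windows were also found at 222 other loci. With 100-base windows the unique share was 14.2% for Gapdh, 41.0% for Eno1, 33.0% for Pgk1 and 60.3% for Pgam1. The stretches are printed to show the shared sequence, with 60 coding bases of each gene and of a copy on another chromosome, read 5′ to 3′ on the gene's strand, from GENCODE vM21 transcripts (GRCm38).
Gapdh: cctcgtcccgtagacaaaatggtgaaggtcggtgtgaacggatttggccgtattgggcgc
Gm7336: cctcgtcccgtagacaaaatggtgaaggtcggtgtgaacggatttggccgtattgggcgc
Pgk1: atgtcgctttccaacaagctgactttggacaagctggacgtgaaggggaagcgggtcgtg
Pgk1-rs7: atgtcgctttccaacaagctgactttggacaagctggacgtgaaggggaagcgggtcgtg
Pgam1: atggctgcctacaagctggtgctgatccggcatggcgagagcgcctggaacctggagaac
Pgam1-ps2: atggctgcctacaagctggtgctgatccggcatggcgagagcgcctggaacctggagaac
Eno1: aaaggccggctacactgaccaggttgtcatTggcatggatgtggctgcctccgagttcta
Gm4735: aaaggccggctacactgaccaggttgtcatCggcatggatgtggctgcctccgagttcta
Capitals mark the differing base, which occurs in the Eno1 stretch alone. The Gapdh stretch covers bases 61 to 120 of the longest annotated coding sequence of a gene on chromosome 6 (125161715 to 125166467, minus strand), and its copy Gm7336 lies on chromosome 7. Over the 1049 bases that could be compared, 26 differed between Gapdh and Gm7336 (97.52% identical), with a longest identical run of 1017 bases. Pgk1 lies on chromosome X (106187100 to 106203699, plus strand) and Pgk1-rs7 on chromosome 12, and all 1250 bases that could be compared were identical. Pgam1 lies on chromosome 19 (41911923 to 41918660, plus strand) and Pgam1-ps2 on chromosome 7, with 762 of 762 coding bases identical. Eno1 lies on chromosome 4 (150236721 to 150248879, plus strand) and Gm4735 on chromosome 2, and 5 of 1302 coding bases differed. The Eno1 stretch covers bases 696 to 755, and the Pgk1 and Pgam1 stretches cover bases 1 to 60.

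Gapdh stood at 29.6 CPM per kilobase, Eno1 at 40.0, Pgk1 at 4.09 and Pgam1 at 4.49, while Aldoa and Pkm stood at 352 and 149. The unique share was measured on a single transcript, of 1273 bases against 4133 exon bases for Gapdh and 2027 against 5379 for Eno1. The other exon bases were not checked, so levels scaled by that share are rough. The exon length was scaled to it as if reads of shared sequence had not been counted. The level became 310 CPM per unique kilobase for Gapdh, 144 CPM for Eno1, 12.8 CPM for Pgk1 and 7.68 CPM for Pgam1. That is 10.5 times the unscaled level for Gapdh and 3.12 times for Pgk1. Scaled in the same way, Aldoa stood at 407, Pkm at 215 and Ldha at 128 CPM per unique kilobase, so that Gapdh came next after Aldoa and Eno1 came above Ldha. The 4 Gapdh pseudogenes looked up and found in the table, among 222 other loci, held few counts. They summed to 43 and 36 counts in R213G libraries and 62 and 58 counts in WT libraries. Counts of Eno1b, a protein-coding copy that shares 70.5% of the Eno1 windows, were not looked up. The Suclg2 copy Gm15163 had 43 and 75 counts in R213G libraries and 48 and 38 counts in WT libraries. Suclg2 itself had 292 and 389 counts in R213G libraries and 205 and 338 counts in WT libraries. How the counting treated reads with several matches is not given in the sources used here, and its part in these levels was not tested. Among the 28 genes with at least 90% unique windows, 17 fold changes were positive and the median was 0.06.

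**Figure D4:**
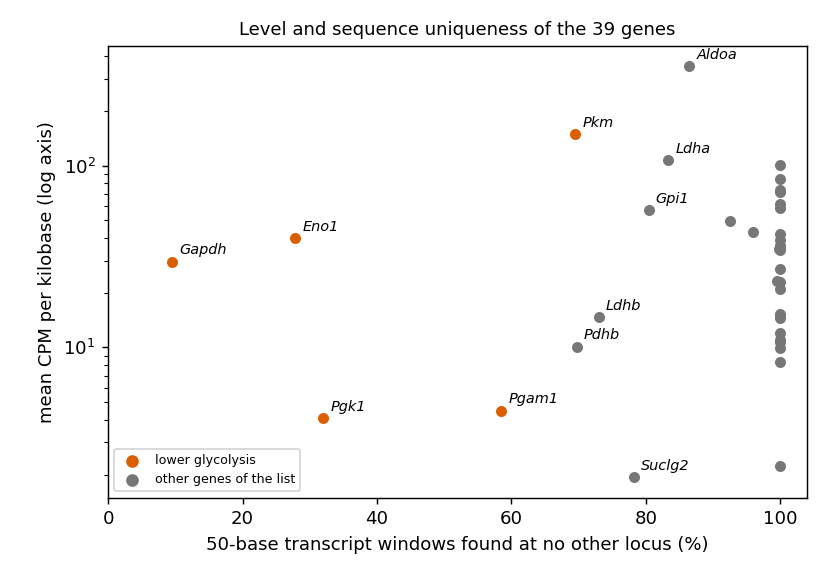
Mean level of each of the 39 genes in CPM per kilobase of exon, on a log axis, against the percentage of its 50-base transcript windows found at no other annotated locus. The 5 genes of lower glycolysis, in orange, lie between 9.56% and 69.5%, and most other genes lie at or near 100%.

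Lactate dehydrogenase is a tetramer of the subunits encoded by Ldha, the form that prevails in glycolytic cells, and Ldhb, the form known from heart. Ldha had 13484 and 11839 counts in R213G libraries and 10853 and 11987 counts in WT libraries. In CPM R213G replicate 1 was highest and R213G replicate 2 lay between the WT libraries, with a log2 fold change of 0.12 ± 0.12, or 0.01 without R213G replicate 1. Ldhb averaged 21.7 ± 1.33 CPM in R213G and 24.3 ± 1.62 CPM in WT. Its R213G libraries both lay below its WT libraries, with a log2 fold change of -0.17 ± 0.21 and an unadjusted p of 0.457. Ldha took 90.03% and 87.7% of reads per kilobase of the family in R213G libraries and 85.9% and 87.7% in WT libraries. R213G replicate 2 and WT replicate 2 were nearly equal.

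The promoters of the lactate dehydrogenase genes are printed because the subunits differ in level, at 107 CPM per kilobase for Ldha and 14.7 CPM per kilobase for Ldhb. Each is the 250 bases before a RefSeq start (GRCm38.p6), for Ldha the upstream of its 2 listed starts, at chr7:46845554-46845803 on the plus strand, and for Ldhb its listed start, at chr6:142507958-142508207 on the minus strand, read along the gene.
Ldha: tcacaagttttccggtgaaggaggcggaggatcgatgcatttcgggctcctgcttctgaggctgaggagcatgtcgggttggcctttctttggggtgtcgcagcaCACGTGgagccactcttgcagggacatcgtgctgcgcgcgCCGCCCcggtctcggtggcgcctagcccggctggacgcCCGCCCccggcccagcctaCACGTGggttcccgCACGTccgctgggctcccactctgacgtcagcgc
Ldhb: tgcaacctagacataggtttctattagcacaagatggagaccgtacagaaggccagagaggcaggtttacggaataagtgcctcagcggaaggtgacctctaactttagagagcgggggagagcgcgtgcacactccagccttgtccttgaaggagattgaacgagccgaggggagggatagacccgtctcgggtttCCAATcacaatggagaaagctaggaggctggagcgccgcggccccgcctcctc
Capitals mark ACGTG, the core of the hypoxia response element, GGGCGG, the GC box, and CCAAT, each searched on both strands. Matches that overlap are shown as a single run. This Ldha stretch held ACGTG at 3 places and GGGCGG at 2, with no CCAAT, and the window at the other Ldha start held 0 of each. The Ldhb promoter held CCAAT once and neither of the other motifs. Over windows from 250 bases before to 50 after the start, ACGTG occurred for 11 of 17 genes of glycolysis and lactate dehydrogenase (64.7%) and 5 of 20 genes of pyruvate dehydrogenase and the citrate cycle (25%), against 23.2% of 17492 protein-coding genes in the RefSeq table. Genes with several starts have several windows, and per window the shares were 46.4%, 38.5% and 20.9%. GGGCGG occurred for 70.3% of the 37 genes with a listed promoter and for 49.2% of protein-coding genes. The shares for CCAAT were 51.4% and 42.3%. TATAAA occurred for 0 of the 37, against 14.8% of protein-coding genes. These matches describe the letters of the windows and not binding. Idh3a and Sdhc had no entry.

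The pyruvate dehydrogenase complex joins glycolysis to the citrate cycle, and 3 of its 4 genes had a negative fold change, with a median of -0.08. Pdha1, which encodes the alpha subunit of the decarboxylase, was highest per kilobase and had 2626 and 3193 counts in R213G libraries and 3117 and 2871 counts in WT libraries. Its genotypes overlapped, with a log2 fold change of -0.08 ± 0.15. Pdhb, the beta subunit of the same component, had 1278 and 1227 counts in R213G libraries and 1379 and 1420 counts in WT libraries. Both R213G libraries of Pdhb lay below both WT libraries, with a log2 fold change of -0.19 ± 0.17 and an unadjusted p of 0.276. Dlat, the acetyltransferase core, had 1513 and 2038 counts in R213G libraries and 1727 and 1967 counts in WT libraries, with R213G replicate 1 the lowest library. Dld, the dehydrogenase that the complex shares with the 2-oxoglutarate dehydrogenase complex, had 3174 and 2973 counts in R213G libraries and 2513 and 2881 counts in WT libraries. Its R213G libraries both lay above WT, with a log2 fold change of 0.16 ± 0.14. Leaving out R213G replicate 1 gave a median of 0.07 for the 4 genes, and leaving out R213G replicate 2 gave -0.18.

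In the citrate cycle 14 of 18 fold changes were positive, with a median of 0.08, and none passed the test. The R213G libraries both lay above both WT libraries for 5 genes, Ogdh, Sucla2, Suclg1, Sdha and Fh1, and both below for 0. That is 5 of 18 genes (27.8%), where 28.9% of all genes tested had no overlap in either direction and 13.7% were higher in both R213G libraries. Leaving out WT replicate 1 gave a median of 0.02 for the cycle, and leaving out R213G replicate 1 gave 0.07. Cs, citrate synthase of the entry step, had 8678 and 8560 counts in R213G libraries and 8290 and 8564 counts in WT libraries. The 4 libraries lay between 246 and 254 CPM, and the log2 fold change was 0.00 ± 0.11. Among the isocitrate dehydrogenases, Idh1, the cytosolic enzyme that yields NADPH, had 8592 and 7811 counts in R213G libraries and 7436 and 7913 counts in WT libraries, and the groups overlapped. Idh3g, a subunit of the mitochondrial enzyme that yields NADH, had 3967 and 3692 counts in R213G libraries and 3743 and 4048 counts in WT libraries. The fold changes of Idh1, Idh2, Idh3a, Idh3b and Idh3g all lay between -0.06 and 0.09 on the log2 scale.

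The 2-oxoglutarate dehydrogenase complex follows. Ogdh, its decarboxylase, had 13635 and 14586 counts in R213G libraries and 12989 and 13640 counts in WT libraries. Both R213G libraries were slightly above WT in CPM, by a log2 fold change of 0.05 ± 0.11 with an unadjusted p of 0.654. Dlst, the succinyltransferase core, averaged 149 ± 8.40 CPM in R213G and 143 ± 15.9 CPM in WT.

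Succinyl-CoA ligase, which makes succinate with a nucleoside triphosphate, had the 2 smallest p-values among the 39 genes. Suclg1, the alpha subunit common to both forms of the enzyme, had 2570 and 1753 counts in R213G libraries and 1663 and 1592 counts in WT libraries. R213G replicate 1 stood apart at 75.3 CPM, while R213G replicate 2 and WT replicate 1 were nearly equal at 50.4 and 50.3 CPM. The log2 fold change was 0.38 ± 0.20, a fold of 1.30 with a 95% interval from 0.950 to 1.77, an unadjusted p of 0.0913 and an adjusted p of 1.00 (edgeR). The gap between its R213G libraries, 0.58 on the log2 scale, was the largest of the 39 genes in that genotype. Without R213G replicate 1 its log2 fold change was 0.06, and without R213G replicate 2 it was 0.64. Sucla2, the beta subunit of the ATP-forming enzyme, had 1770 and 1469 counts in R213G libraries and 1230 and 1351 counts in WT libraries. Both R213G libraries lay above both WT libraries, with a log2 fold change of 0.30 ± 0.18, an unadjusted p of 0.125 and an adjusted p of 1.00 (edgeR). Leaving out R213G replicate 1 gave 0.14. Suclg2, the beta subunit of the GTP-forming enzyme, had 292 and 389 counts in R213G libraries and 205 and 338 counts in WT libraries. Its WT libraries were 0.66 apart on the log2 scale, the largest gap of the 39 genes in WT, and the genotypes overlapped.

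Succinate dehydrogenase oxidises succinate and is also complex II of the respiratory chain, and the fold changes of its 4 subunits ran from 0.02 to 0.11 on the log2 scale. Sdhd had 4688 and 4195 counts in R213G libraries and 3744 and 4343 counts in WT libraries, with WT replicate 1 the lowest and R213G replicate 1 the highest. Sdha, the flavoprotein that holds the active site, averaged 303 ± 0.89 CPM in R213G and 286 ± 14.5 CPM in WT, and its R213G libraries both lay above WT. Sdhb, the iron-sulfur subunit, and Sdhc, the other membrane anchor, overlapped between genotypes. Fh1, fumarase, had 2092 and 1703 counts in R213G libraries and 1421 and 1678 counts in WT libraries. Its R213G replicate 2 and WT replicate 2 were nearly equal, at 48.9 CPM each, with R213G replicate 1 above them and WT replicate 1 below. The log2 fold change of Fh1 was 0.26 ± 0.17, with an unadjusted p of 0.165 and an adjusted p of 1.00 (edgeR), and leaving out R213G replicate 1 gave 0.09 and leaving out WT replicate 1 gave 0.17. Mdh2, the mitochondrial malate dehydrogenase that closes the cycle, had 8582 and 7325 counts in R213G libraries and 7207 and 6602 counts in WT libraries. In CPM R213G replicate 2 lay between the WT libraries, and the log2 fold change was 0.17 ± 0.13, or 0.04 without R213G replicate 1. Mdh2 lies on chromosome 5, 83.4 Mb from Sod3, and no other gene of the 39 is on that chromosome. Mdh1, the cytosolic enzyme, averaged 103 ± 4.20 CPM in R213G and 97.7 ± 6.63 CPM in WT.

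Averaged within each arm of the 39 genes as mean log2 CPM, lower glycolysis and the citrate cycle were the arms in which both R213G libraries exceeded both WT libraries. The score of lower glycolysis was 6.28 and 6.17 in R213G libraries and 5.92 and 6.07 in WT libraries, a difference of 0.23, while replicates differed by 0.11 in R213G and 0.14 in WT. This score weights genes alike. Its largest log2 fold changes were those of Pgk1 (0.51 ± 0.35) and Pgam1 (0.35 ± 0.34), the genes of lowest level in the arm. Those of Gapdh, Eno1 and Pkm lay between 0.08 and 0.11, and no gene of the arm exceeded 69.5% unique windows. The score of the citrate cycle was 6.80 and 6.74 in R213G libraries and 6.61 and 6.72 in WT libraries, a difference of 0.11, with WT replicates 0.11 apart. Upper glycolysis scored 6.81 and 6.92 in R213G libraries and 6.91 and 6.90 in WT libraries, and so overlapped. WT replicate 1 was the lowest library for lower glycolysis and the citrate cycle, and for 16 of the 39 genes, while R213G replicate 1 was the highest library for 19. Over all genes tested WT replicate 1 was lowest for 24.2% and R213G replicate 1 highest for 31.2%. Without WT replicate 1 the difference was 0.15 for lower glycolysis and 0.05 for the citrate cycle. The score of the 14 proliferation genes moved with these arms in WT, at 5.93 and 6.16 in R213G libraries and 5.26 and 6.08 in WT libraries. Its part in the arm scores was not tested.

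**Figure D5:**
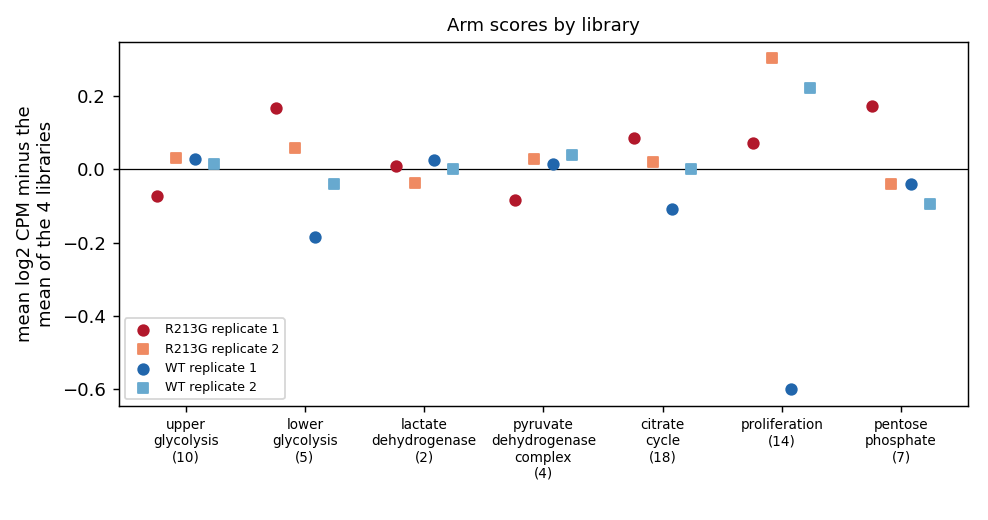
Mean log2 CPM of the genes of each arm in each library, less the mean of the 4 libraries, with the number of genes in brackets and 1 point per library. R213G replicate 1 is highest and WT replicate 1 lowest for lower glycolysis and the citrate cycle, and WT replicate 1 is also lowest for the proliferation genes.

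Further genes of the pathway were read from a list of 68 transporters, regulators, other isozymes, side arms, assembly factors and pentose phosphate enzymes. Of these, 63 were in the table and 60 were tested. The edgeR test called 0 higher and 0 lower, 0 reached an unadjusted p under 0.05, and DESeq2 and limma voom called 0. Their median log2 fold change was 0.02, with 33 of 60 positive. Slc2a1, the glucose transporter of highest level, had 2509 and 2681 counts in R213G libraries and 2699 and 2767 counts in WT libraries. Its log2 fold change was -0.11 ± 0.13, with the R213G libraries just below WT in CPM. Slc16a3, a lactate exporter, had 3692 and 3670 counts in R213G libraries and 3613 and 3826 counts in WT libraries, with a log2 fold change of -0.05 ± 0.12. Pfkfb4, which sets the level of the phosphofructokinase activator fructose 2,6-bisphosphate, averaged 122 ± 0.62 CPM in R213G and 122 ± 19.8 CPM in WT. Pdk3, a kinase that inhibits pyruvate dehydrogenase, averaged 30.9 ± 9.02 CPM in R213G and 35.5 ± 2.86 CPM in WT, and its genotypes overlapped.

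The smallest p-values of that list belonged to Pgls, Tigar, Rpe, Adpgk, Rpia and Pcx, and 3 of these are enzymes of the pentose phosphate pathway, which makes NADPH and ribose from glucose 6-phosphate. Pgls, its lactonase, averaged 98.1 ± 23.5 CPM in R213G and 80.6 ± 8.07 CPM in WT, with a log2 fold change of 0.28 ± 0.18 and an unadjusted p of 0.144. R213G replicate 1 was the highest of the 4 libraries, the other R213G library lay between the WT libraries, and leaving out R213G replicate 1 gave a log2 fold change of 0.02, while leaving out R213G replicate 2 gave 0.51. Rpe, an epimerase, and Rpia, an isomerase, had log2 fold changes of 0.23 ± 0.18 and 0.25 ± 0.20, and of 0.11 and 0.09 without R213G replicate 1. All 7 pentose phosphate genes were positive, with a median of 0.08, and none passed the test. Their mean log2 CPM was 7.47 and 7.26 in R213G libraries and 7.26 and 7.21 in WT libraries. The R213G libraries thus both lay above WT, with R213G replicate 2 and WT replicate 1 nearly equal. Tigar, a phosphatase that lowers fructose 2,6-bisphosphate, averaged 30.1 ± 2.19 CPM in R213G and 24.9 ± 3.26 CPM in WT, and its R213G libraries both lay above WT. Adpgk, an ADP-dependent glucokinase, averaged 36.2 ± 2.55 CPM in R213G and 42.2 ± 3.65 CPM in WT, and its R213G libraries both lay below WT. Pcx, pyruvate carboxylase, was scarce, with 62 and 91 counts in R213G libraries and 125 and 117 counts in WT libraries, and its log2 fold change was -0.69 ± 0.56.

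Markers of other cells were also measured. The 3 listed airway epithelial markers summed to 1.87 and 2.79 CPM in R213G libraries and 1.45 and 1.34 CPM in WT libraries. The 4 of 5 alveolar epithelial markers in the table summed to 32.7 and 17.3 CPM in R213G libraries and 15.5 and 11.5 CPM in WT libraries, so that R213G replicate 1 was the highest. Most of this sum was Epcam, at 32.2 and 14.8 CPM in R213G libraries and 14.9 and 9.59 CPM in WT libraries. Sftpb was instead lowest in R213G replicate 1, at 0.41 CPM, and Sftpc and Sftpa1 had 0 counts there. The 2 of 6 neutrophil markers in the table summed to 20.7 and 12.2 CPM in R213G libraries and 11.1 and 13.2 CPM in WT libraries. The markers of T and NK cells, B cells, endothelium, fibroblasts and red cells that are in the table summed to at most 9.14 CPM per list and library. The 6 markers of resident alveolar macrophages, which also mark recruited cells as they mature, summed to 253 and 280 CPM in R213G libraries and 205 and 575 CPM in WT libraries. Most of the WT sums was Chil3, at 134 and 504 CPM. Car4 and Marco were also higher in WT replicate 2 than in WT replicate 1, while Siglecf, Fabp4 and Krt79 were not. The part of other cell types in the values of R213G replicate 1 was not tested.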

How the data were processed

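Poly(A) RNA from sorted recruited alveolar macrophages was sequenced as directional libraries, per the labels' protocols. The deposited table holds raw counts, not normalized, with 1 row per gene symbol and 1 column per library. Per the submitters' processing notes, STAR 2.5.1b, featureCounts from Subread 1.4.4 and GRCm38 were used. The annotation release, strand setting, read length and treatment of reads with several matches were not given in the sources used here, so genes with near-identical copies and genes whose exons overlap another gene (Pkm 15.3% and Pfkm 10.2% on the same strand, Pdha1 16.2% and Gpi1 11.5% on the opposite strand) are uncertain.

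Total counts ranged from 33488569 to 35176210. No library pair agreed within sampling noise (chi-square per degree of freedom at least 17.5). The closest pair was R213G replicate 2 with WT replicate 2, at 17.5. The 2 WT libraries gave 33.2, and the 2 R213G libraries were the least alike pair, at 57.1. The test was edgeR 4.0.16 quasi-likelihood (newer form, robust, TMM, filterByExpr by genotype), R213G against WT, with Benjamini-Hochberg adjustment over 13575 genes and a threshold of 0.05, in R 4.3.3. It left 2 residual degrees of freedom, with a biological coefficient of variation of 0.374. Values are CPM ± SD over 2 libraries, log2 fold changes ± SE; scores are mean log2 CPM with a prior count of 2. Lengths and windows came from GENCODE vM21 exons (GRCm38), promoters from RefSeq (GRCm38.p6). Aldoa has 2 gene IDs there, and that which overlaps the RefSeq gene was used. The scripts were tested on simulated data.

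The 39 genes and all lists were chosen with earlier results of these data known, so lists are described by counts and medians without a test. Values in every library, as counts (for Pgk1 as CPM), are given for the gene of highest level per kilobase at each step, the 5 of smallest p and the largest replicate gap per genotype. Of the other pathway genes, those named are the 6 of smallest p and the highest member of the glucose transporter, lactate transporter, Pfkfb and Pdk families. Tried as alternatives were scaling by upper quartile or by DESeq2 size factors; filters of none or of 5 CPM on average; the tests of DESeq2 1.42.0, limma voom (3.58.1) and edgeR's legacy form; a replicate block; the longest transcript as length; and leaving out each library. Levels per unique length and the restriction to genes with at least 90% unique windows were added after seeing the data.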

Additional observations from a re-analysis of the deposited data

How the results depend on the processing

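No setting brought any of the 39 genes past the threshold. DESeq2 called 1 gene in the whole table, and leaving out a library gave 0 to 2. Of all genes, 150 reached an unadjusted p under 0.05 with a mean of at least 5 CPM, 201 with limma voom, and 71 (without WT replicate 1) to 1960 (without R213G replicate 2) with a library left out, against 302. Of the 39, 0 reached it in the full fit and 0 to 7 with a library left out, the 7 being Hk2, Pfkl, Pfkp, Sucla2, Suclg1, Fh1 and Mdh2 without R213G replicate 2. In fits with a library left out, the lone library of a genotype is assumed to vary like the others.

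The median log2 fold change of the 39 genes ran from 0.016 (without WT replicate 1) to 0.087 with a library left out, against 0.077, and that of the pyruvate dehydrogenase genes from -0.18 to 0.071. Gpi1, at 0.0028 in the full fit, was -0.0022 with limma voom and -0.0018 with the replicate block, and Cs, at -0.00077, was 0.0028 with a mean of at least 5 CPM. With a library left out, 14 genes reversed in some fit: Hk2 (-0.38 to 0.19), Hk3 (-0.22 to 0.11), Gpi1 (-0.12 to 0.11), Pfkp (-0.098 to 0.40), Eno1 (-0.080 to 0.22), Pdha1 (-0.21 to 0.046), Dlat (-0.31 to 0.097), Cs (-0.023 to 0.020), Idh1 (-0.020 to 0.14), Idh2 (-0.19 to 0.098), Idh3a (-0.13 to 0.037), Idh3g (-0.12 to 0.0042), Dlst (-0.047 to 0.18), Sdhb (-0.049 to 0.092). The other 25 of the 39 kept their sign under every setting. Of the other pathway genes checked, those that reversed with a library left out were Pfkfb4 (-0.15 to 0.18), Pfkfb3 (-0.52 to 0.12), Pdk3 (-0.54 to 0.072), Pdk1 (-0.11 to 0.13), Pdk2 (-0.11 to 0.11). Under the other scalings, filters and lengths the genotype differences in arm score and isozyme share moved by less than 1 SD. The shares themselves depended more on the length used. With the longest transcript, the shares of Hk1, Aldoa, Ldha, Idh2 and Mdh2 rose by more than 1 SD. Those of Hk2, Hk3, Pfkm, Aldoc, Ldhb, Idh1 and Mdh1 fell by more than 1 SD. The shares of Pfkl, Pfkp, Sucla2 and Suclg2 moved by less. In R213G replicate 1, Hk1 then exceeded Hk2. With a library left out, the score difference ran from -0.094 to 0.010 for upper glycolysis and from -0.11 to 0.0011 for pyruvate dehydrogenase, while the other arms kept their sign. The share difference in points ran from -0.34 to 4.59 for Hk1, -4.23 to 1.32 for Hk2, -2.35 to 1.02 for Hk3, -10.6 to 1.17 for Pfkl, -0.11 to 12.99 for Pfkp, -3.43 to 2.70 for Sucla2, -1.80 to 4.57 for Idh1 and -4.24 to 1.31 for Mdh1, with the mirror image for Suclg2, Idh2 and Mdh2. Pfkm, Aldoa, Aldoc, Ldha and Ldhb kept the sign of their share difference.

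The labels do not say whether same-numbered libraries of the 2 genotypes form a pair. Their deviations correlated at 0.09 over 13575 genes and 0.04 over the 39, which cannot settle this for single genes or a shared batch. The replicate block gave 0 of the 39 past the threshold, 24 positive and a median of 0.07, and 0 calls and 298 genes at an unadjusted p under 0.05 in the whole table. The median SE of 0.14 rests on 2 libraries per genotype and 187 or more counts per gene and library, and the intervals do not cover the treatment of reads with several matches.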
